A study of Mus musculus with 4 samples.

Results

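The brush border disaccharidases are the enzymes that split dietary sugars at the luminal surface of the small intestine. The 4 genes described here, Sis, Mgam, Lct and Treh, were taken by gene name from the 51509 genes listed in a table of raw RNA sequencing counts, and all 4 passed the filter on low counts that 14684 genes passed. The 4 libraries, of 16433117 to 18087250 counts, came from mouse intestinal organoids, epithelial cultures that hold the absorptive and secretory cells of the gut, taken from C57BL/6 mice of wild-type genotype between 8 and 12 weeks of age. One group of 2 libraries had been given SGC-CBP30, an inhibitor of the bromodomains of the acetyltransferases CBP and p300, and the other group of 2 had been given vehicle. Both groups had been irradiated with 8 Gy, and RNA was taken 36 hours later. No unirradiated group was analysed here, and the intestinal segment is not given in the sources used here. SGC-CBP30 replicate 2 reads SGC-CBP31 in its treatment label and was grouped by its title, so disaccharidase values without it are given where a call or direction changes or a value moves by over 1.5 times. The labels do not say whether replicates are separate cultures or mice, and the p-values therefore measure the spread between these libraries, which may be technical.

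Disaccharides and starch fragments cannot cross the enterocyte membrane. Enzymes anchored in the microvillus membrane cut them to glucose, galactose and fructose, which sugar transporters then carry into the cell. Sis encodes sucrase-isomaltase, which cuts sucrose and the branch points of starch fragments, and Mgam encodes maltase-glucoamylase, a related enzyme that removes glucose from the ends of starch chains. Lct encodes lactase, the enzyme of milk sugar, whose level falls after weaning in mice, and Treh encodes trehalase, which splits the fungal and insect sugar trehalose. In the mouse Sis and Treh rise around weaning. All are used as markers of differentiated enterocytes.

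The genes lie on 4 chromosomes (GRCm38, whole gene spans). Sis (ENSMUSG00000027790) spans bases 72888557 to 72967863 of chromosome 3 on the minus strand. Mgam (ENSMUSG00000068587) spans 40628831 to 40769123 of chromosome 6 on the plus strand. Lct (ENSMUSG00000026354) spans 128284756 to 128328318 of chromosome 1 on the minus strand, and Treh (ENSMUSG00000032098) spans 44673233 to 44686305 of chromosome 9 on the plus strand. The 250 bases before each start are shown because CDX2 and GATA factors are known to act through the proximal promoters of Sis and Lct, and because all 4 transcripts moved the same way. They are from RefSeq (GRCm38.p6), read 5′ to 3′ along the gene, with all 4 genes matched, and capitals mark short motifs searched on both strands. The motifs, chosen after the sequences were read, were GATAA (1 form of the site bound by GATA factors), TTTATG (a CDX site) and TATAAA (letters of a TATA box). Other forms of these sites were not searched, so a window without a match may still hold one.
Sis: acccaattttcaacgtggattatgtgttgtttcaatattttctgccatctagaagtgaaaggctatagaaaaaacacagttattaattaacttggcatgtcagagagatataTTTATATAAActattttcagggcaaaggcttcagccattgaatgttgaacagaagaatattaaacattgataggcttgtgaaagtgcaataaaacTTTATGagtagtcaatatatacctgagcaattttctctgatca
Mgam: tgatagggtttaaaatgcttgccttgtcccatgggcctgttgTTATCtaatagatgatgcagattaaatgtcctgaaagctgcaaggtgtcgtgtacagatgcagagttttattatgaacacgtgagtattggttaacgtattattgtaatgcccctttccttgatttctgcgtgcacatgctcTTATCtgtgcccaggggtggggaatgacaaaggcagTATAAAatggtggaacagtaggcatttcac
Lct: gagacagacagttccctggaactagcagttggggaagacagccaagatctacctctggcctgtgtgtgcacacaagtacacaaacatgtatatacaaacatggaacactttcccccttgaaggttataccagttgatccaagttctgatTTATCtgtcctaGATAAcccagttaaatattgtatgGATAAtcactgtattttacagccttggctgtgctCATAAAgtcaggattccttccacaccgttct
Treh: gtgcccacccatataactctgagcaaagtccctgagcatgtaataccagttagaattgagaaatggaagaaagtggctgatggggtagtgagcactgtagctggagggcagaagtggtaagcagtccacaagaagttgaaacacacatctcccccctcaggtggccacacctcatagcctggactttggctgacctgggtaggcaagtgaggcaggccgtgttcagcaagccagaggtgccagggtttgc
These windows are chr3:72967864-72968113 on the minus strand, chr6:40628581-40628830 on the plus strand, chr1:128328319-128328568 on the minus strand and chr9:44672983-44673232 on the plus strand. TTTATG lay 43 bases before the start of Sis and, on the reverse strand, 31 bases before that of Lct, and 10.8% of the 32851 promoter windows of the same length held it. GATAA occurred 3 times in Lct, 101, 89 and 65 bases before the start, and 2 times in Mgam, at 208 and 66 bases, against 22.6% of windows with at least 1. TATAAA lay 30 bases before the start of Mgam, and Sis held it on both strands, overlapping, 138 and 134 bases before the start, against 12.4% of windows. No GATAA was found in Sis, no TTTATG in Mgam and no TATAAA in Lct. The Treh window held none of the 3 motifs and had 53.2% G and C, above the 31.6% of Sis, the 42.4% of Mgam and the 42.8% of Lct. The median over all windows was 52.4%. A match shows only that these letters are present.

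All 4 transcripts were lower in the organoids given SGC-CBP30, 3 of them by more than 2-fold and Mgam by less. With library totals as the scale the log2 fold changes were -0.98 for Sis, -0.30 for Mgam, -0.98 for Lct and -1.13 for Treh, so that Treh alone was then more than 2-fold lower. All 4 passed the test, against 16.3% of the 14684 genes tested that were called lower (edgeR quasi-likelihood test with the false discovery rate of Benjamini and Hochberg held under 0.05). At least 2-fold lower calls made up 4.41% of genes tested. The groups did not overlap for any of the 4, and 31.0% of genes tested had both SGC-CBP30 libraries below both vehicle libraries. In bulk libraries fewer enterocytes and less of a transcript per enterocyte cannot be told apart. In all, 4401 genes (30.0%) were called, 2004 higher and 2397 lower. With library totals as the scale the split was 2907 higher and 1924 lower, and without vehicle replicate 2 the count was 2899.

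Sis, the most abundant of the 4, had 115457 and 136608 counts in SGC-CBP30 replicates 1 and 2, against 267151 and 240948 counts in vehicle replicates 1 and 2. Scaled to library size by the trimmed mean of M values (TMM), these were 6778 and 7769 CPM (counts scaled to a common library size) with SGC-CBP30, against 15106 and 15080 CPM with vehicle. The vehicle libraries lay almost on each other, whereas SGC-CBP30 replicate 2 was 1.15 times replicate 1. The transcript was 2.08-fold lower, with a log2 fold change of -1.05 ± 0.06 (SE, edgeR adjusted p = 1.93e-12). It took 0.746% ± 0.0761 of all counts with SGC-CBP30 and 1.47% ± 0.00762 with vehicle (SD, n = 2 each). Over all libraries Sis was the 3rd most abundant gene by mean CPM. Of the 100 genes of highest mean CPM, 43 fell, 25 rose and 5 fell at least 2-fold, with a median log2 fold change of -0.081. These 5, named after their values were seen, were Sis, the IgA transporter gene Pigr, the sulfate-activating enzyme gene Papss2, the aminopeptidase gene Anpep and the cytochrome P450 gene Cyp2j6. Only 1 of the 100 had a lower fold change than Sis.

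Mgam had the smallest fold change. There were 58195 and 72783 counts in SGC-CBP30 replicates 1 and 2, against 87127 and 77274 counts in vehicle replicates 1 and 2, which came to 3416 and 4139 CPM with SGC-CBP30 against 4927 and 4836 CPM with vehicle. SGC-CBP30 replicate 2 was 1.21 times replicate 1 and lay below both vehicle libraries. The log2 fold change was -0.37 ± 0.07 (SE, edgeR adjusted p = 4.38e-04), or 1.29-fold lower. It was -0.24 without SGC-CBP30 replicate 1 and -0.51 without SGC-CBP30 replicate 2. The highest adjusted p of Mgam over the alternatives that kept all 4 libraries was 0.0411, with DESeq2. Next to Mgam on chromosome 6 lies Mgam2-ps (ENSMUSG00000102802, 40778711 to 40855600, plus strand), annotated as a transcribed pseudogene of the same family. It had 1380 and 1991 counts with SGC-CBP30, against 2995 and 2809 with vehicle, and fell by 0.83 ± 0.16 on the log2 scale (edgeR adjusted p = 0.0193). Like Mgam it was higher in SGC-CBP30 replicate 2 than in replicate 1, by 1.4 times. Of the 8475 distinct stretches of 50 bases in the annotated Mgam transcripts, 25 (0.295%) also occurred in those of Mgam2-ps, and none of 100 bases did. No stretch of 50 bases was shared between Mgam and Sis.

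Lct, much less abundant, had 5371 and 5117 counts in SGC-CBP30 replicates 1 and 2, against 10923 and 10189 in vehicle replicates 1 and 2. In CPM these were 315 and 291 with SGC-CBP30 against 618 and 638 with vehicle. Both groups were narrow and lay far apart. The log2 fold change was -1.05 ± 0.06 (SE, edgeR adjusted p = 7.81e-13), a 2.07-fold lower level. Treh had 3873 and 3546 counts in SGC-CBP30 replicates 1 and 2, against 8732 and 7941 in vehicle replicates 1 and 2, or 227 and 202 CPM with SGC-CBP30 against 494 and 497 CPM with vehicle. Its log2 fold change was the lowest of the 4, at -1.21 ± 0.06 (edgeR adjusted p = 1.84e-13) or 2.31-fold lower. Within the SGC-CBP30 group the replicates ordered these genes in opposite ways. Sis and Mgam were higher in replicate 2, whereas Lct and Treh were lower there, at 0.923 and 0.887 times replicate 1. In the vehicle group the ratio of replicate 2 to replicate 1 stayed between 0.982 for Mgam and 1.03 for Lct. In the authors' deposited table, which holds its own comparison, the log2 fold changes of Sis, Lct and Treh were -1.05, -1.05 and -1.21. The same authors' deposited table gives Mgam -0.37 with an adjusted p of 0.0403.

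**Figure D1:**
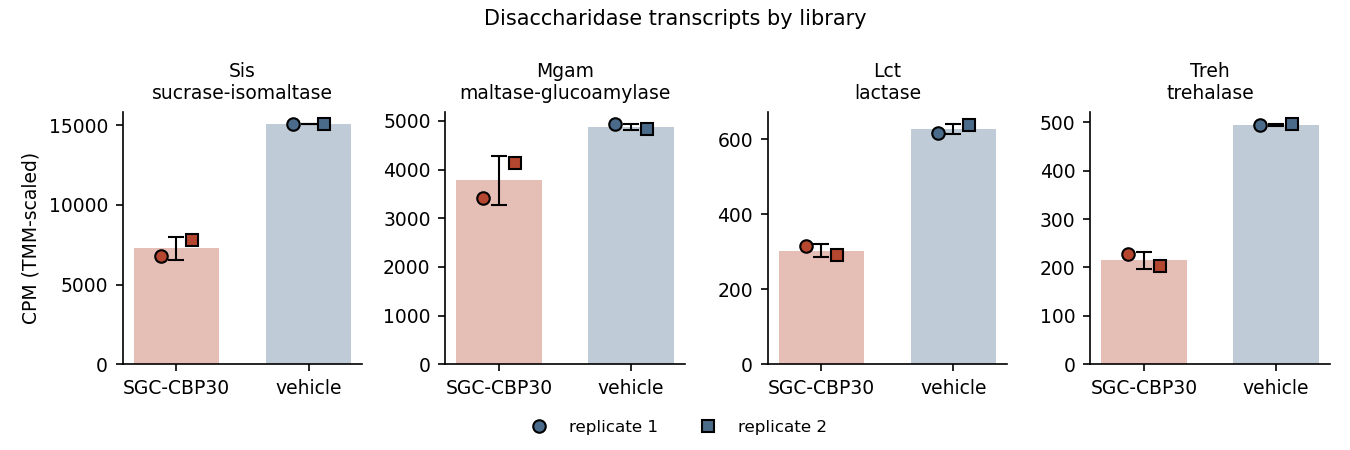
TMM-scaled CPM of each disaccharidase gene (vertical axis, linear and from 0) in SGC-CBP30 and vehicle libraries; bars are means, whiskers SD (n = 2 each), circles replicate 1 and squares replicate 2. Every SGC-CBP30 point lies below every vehicle point. Relative to its level the gap is smallest for Mgam, with 4139 CPM in SGC-CBP30 replicate 2 and 4836 CPM in vehicle replicate 2.

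Per length, the order of the 4 levels was the same in every library, with Sis highest, then Mgam, Treh and Lct. Sis stood at 974 ± 94.0 CPM per kilobase with SGC-CBP30 and 2022 ± 2.49 with vehicle (SD, n = 2 each). For Mgam the levels were 434 ± 58.8 CPM per kilobase with SGC-CBP30 and 561 ± 7.34 with vehicle. Treh had 105 ± 8.87 with SGC-CBP30 and 242 ± 1.12 with vehicle, and Lct 47.3 ± 2.68 with SGC-CBP30 and 98.0 ± 2.21 with vehicle, on the same scale. No neighbours in this order overlapped in either group. Among genes tested, ranked by level per length, Sis held place 38 with SGC-CBP30 and 17 with vehicle, Mgam 85 with SGC-CBP30 and 59 with vehicle, Treh 425 with SGC-CBP30 and 187 with vehicle, and Lct 996 with SGC-CBP30 and 498 with vehicle.

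The summed disaccharidase transcripts came to 1461 and 1660 CPM per kilobase in SGC-CBP30 replicates 1 and 2, against 2927 and 2918 in vehicle replicates 1 and 2. The SGC-CBP30 mean was 53.4% of the vehicle mean. In an exact two-sided permutation test over the 4 libraries p was 0.333, the smallest that 2 against 2 allows. As a share of library counts the 4 genes took 1.19% ± 0.127 with SGC-CBP30 and 2.06% ± 0.0146 with vehicle (SD, n = 2 each). The shares of Sis and Treh within the 4 were smaller with SGC-CBP30 and that of Mgam larger, without overlap, while for the share of Lct the groups overlapped. Sis made up 62.4% ± 0.374 of the summed level per length with SGC-CBP30 and 69.2% ± 0.0687 with vehicle, and Mgam 27.8% ± 1.25 with SGC-CBP30 and 19.2% ± 0.209 with vehicle. Treh made up 6.77% ± 1.18 with SGC-CBP30 and 8.28% ± 0.0567 with vehicle (exact permutation p = 0.333 for each of these 3 genes, the smallest possible).

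**Figure D2:**
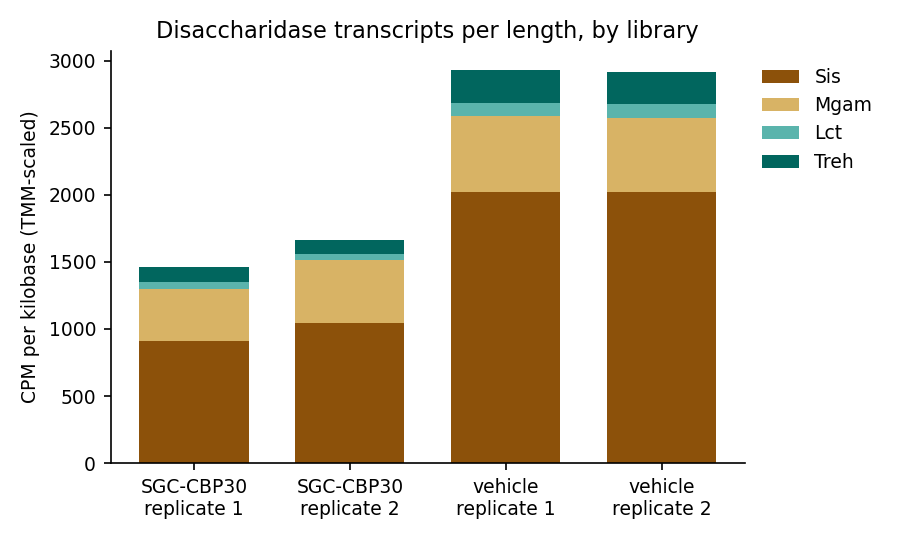
Summed TMM-scaled CPM per kilobase of the 4 disaccharidase genes (vertical axis, from 0), stacked by gene, in each of the 4 libraries. The stacks reach 1461 and 1660 in the SGC-CBP30 libraries and 2927 and 2918 in the vehicle libraries, and the Sis segment shrinks most.

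Ratios between the genes within a library show which of them moved by unequal amounts, since library scaling cancels. The log2 ratio of Sis to Mgam CPM was 0.99 and 0.91 in SGC-CBP30 replicates 1 and 2, against 1.62 and 1.64 in vehicle replicates 1 and 2, a difference of -0.68. The ratio of Mgam to Lct was 0.67 higher and that of Mgam to Treh 0.83 higher with SGC-CBP30 than with vehicle, and the groups did not overlap for either. The Lct to Treh ratio was 0.47 and 0.53 in the SGC-CBP30 libraries, against 0.32 and 0.36 in the vehicle libraries, a small difference of 0.16 without overlap. For Sis against Lct (difference -0.0056) and Sis against Treh (0.15) the groups overlapped. These 2 differences had no steady direction: Sis against Lct gave 0.15 without SGC-CBP30 replicate 1 and -0.16 without SGC-CBP30 replicate 2, and Sis against Treh gave 0.34 without SGC-CBP30 replicate 1 and -0.031 without SGC-CBP30 replicate 2. With vehicle replicate 1 or 2 left out, Sis against Lct gave 0.019 or -0.03. Over these 6 pairs the smallest exact permutation p was 0.333 (0.5 when adjusted over the 6), so no pair could pass a threshold with 2 libraries a group.

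Other genes of the enterocyte were set beside the disaccharidases by lists of known function. Of 18 tested peptidases, phosphatases and other hydrolases of the brush border, 16 fell, 1 rose and 1 did not pass, with a median log2 fold change of -0.94, against 0.0096 over all genes tested, of which 16.3% were called lower and 13.6% higher. The 3 of smallest p were Asah2, a neutral ceramidase, which fell by 1.97 ± 0.06 (log2 scale, SE), the neutral endopeptidase gene Mme with a fall of 1.46 ± 0.06 and the angiotensin-converting enzyme gene Ace with one of 1.28 ± 0.06. Enpp7, the gene of an alkaline sphingomyelinase, named after its values were seen, had the lowest fold change of the list, at -2.93 ± 0.17 (edgeR adjusted p = 5.99e-13). The alkaline phosphatase genes, named after their values were seen, went another way. Akp3 rose by 1.31 ± 0.07, and Alpi, at 2798 ± 56.0 CPM with SGC-CBP30 and 2622 ± 80.6 CPM with vehicle (SD, n = 2 each), was not past the threshold. These are similar genes, so reads may be shared between them.

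Sugar transporter genes were mostly lower. The sole amylase gene tested, Amy1, picked with its values known, did not pass, at 1.28 ± 0.63 (log2 scale, SE, edgeR adjusted p = 0.138). Among 12 tested genes of sugar transport and amylase 8 fell, 2 rose and 2 did not pass (median -0.61), against 16.3% of all genes tested called lower and 13.6% called higher. The largest falls were in Slc5a4b (-2.71 ± 0.07), Slc5a11 (-2.35 ± 0.08) and Slc5a4a (-3.25 ± 0.14), of which Slc5a4a and Slc5a4b are close copies with uncertain counts. Slc5a1, the main carrier of luminal glucose and galactose, fell by 0.49 ± 0.06 and the fructose carrier gene Slc2a5 by 0.42 ± 0.06, both named after their values were seen. Of 17 enzymes that use galactose and fructose 5 rose, 5 fell and 7 did not pass (median -0.11), against the same 13.6% higher and 16.3% lower. Galm, which encodes the galactose mutarotase, fell by 1.03 ± 0.06 and the fructokinase gene Khk by 0.66 ± 0.06, whereas the hexokinase gene Hk1 rose by 0.93 ± 0.09.

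Glycosidases that work inside the cell were more often higher than lower. Of 23 tested lysosomal and endoplasmic reticulum glycosidases 8 rose, 1 fell and 14 did not pass (median 0.18), against 13.6% of all genes tested that were called higher. Man2b2, a lysosomal mannosidase gene, rose by 0.67 ± 0.07 and Naglu, the gene of a lysosomal glucosaminidase, by 0.63 ± 0.13, while the fucosidase gene Fuca2 fell by 0.33 ± 0.07. The Fuca2 call did not hold when vehicle replicate 2 was left out (adjusted p = 0.108). Gaa, Ganab and Ganc, the alpha-glucosidase genes most related to Sis and Mgam, were named for that relation. Gaa, the lysosomal enzyme, rose by 0.28 ± 0.10, near the threshold (edgeR adjusted p = 0.0359). Ganab, of the endoplasmic reticulum, had -0.083 ± 0.06 and Ganc -0.13 ± 0.10, neither past the threshold. The count of 8 higher was 4 without vehicle replicate 1 and 5 without vehicle replicate 2 or in DESeq2.

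Of 24 transcription factor and cofactor genes known to act on disaccharidase or enterocyte genes, 11 fell, 4 rose and 9 did not pass (median -0.11). Over all genes tested 16.3% were called lower and 13.6% higher, and the higher calls in this list were close to that share. The coactivator gene Ppargc1a fell by 1.61 ± 0.12, the nuclear receptor gene Hnf4g by 0.72 ± 0.06 and Gata5 by 1.03 ± 0.09. Some factors known to bind the Sis or Lct promoters are named for that role after their values were seen. Cdx2 fell by 0.21 ± 0.07 (132 ± 13.9 CPM with SGC-CBP30 and 153 ± 1.91 CPM with vehicle). Its call was near the threshold (edgeR adjusted p = 0.0295). Gata4 had 0.063 ± 0.06 and did not pass (edgeR adjusted p = 0.517). The 4 higher calls in this list became 0 without vehicle replicate 1 and 1 in DESeq2.

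Proteins that fold the enzymes and carry them to the apical membrane form another list, in which 5 of 20 genes rose, 7 fell and 8 did not pass (median -0.0029), against 13.6% of all genes tested called higher and 16.3% called lower. Anxa2, an annexin gene, rose by 0.71 ± 0.06 and Lgals3, the gene of a galectin involved in apical sorting, by 1.08 ± 0.08, while Anxa13, of an apical annexin, fell by 0.61 ± 0.06. Lgals4, whose galectin is known to bring brush border enzymes into membrane rafts, rose by 0.26 ± 0.06, and the brush border myosin gene Myo1a fell by 0.32 ± 0.06. Both were named after their values were seen. With library totals as the scale 9 of these genes were called higher.

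**Figure D3:**
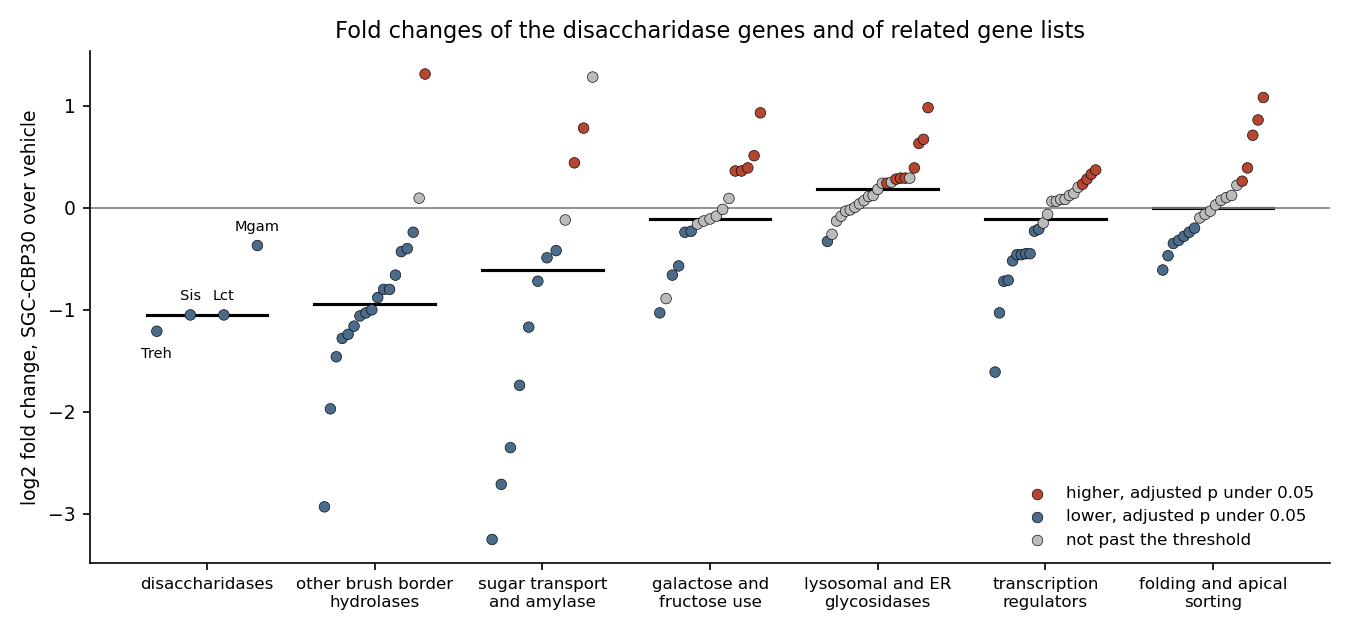
Log2 ratio of SGC-CBP30 to vehicle (vertical axis) for each tested gene of the disaccharidases and of 6 related lists, ordered by value within a list; horizontal bars are medians, red points were called higher, blue lower and grey neither. The disaccharidases and the other brush border hydrolases (median -0.94) lie below 0 but for Akp3 and Alpi, while the intracellular glycosidases centre on 0.18.

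General enterocyte markers were lower by a smaller median than the fold changes of Sis, Lct and Treh, a difference that was not tested. Of 20 markers, which leave out the disaccharidases and share 5 genes with the lists above, 10 fell, 3 rose and 7 did not pass (median -0.23), against 16.3% of all genes tested called lower and 13.6% called higher. Their summed level was 58240 ± 2323 CPM with SGC-CBP30 and 64508 ± 529 CPM with vehicle (SD, n = 2 each). The monoamine oxidase gene Maoa fell by 1.69 ± 0.06 and Anpep by 1.03 ± 0.06. The 3 that rose, named here after their values were seen, were Apoa4 (0.43 ± 0.06), Krt20 (0.43 ± 0.07) and Gsta1 (0.61 ± 0.10). Vil1, the gene of the microvillus protein villin, named after its values were seen, had 1597 ± 79.8 CPM with SGC-CBP30 and 1498 ± 7.07 CPM with vehicle and was not past the threshold. The log2 ratio of Sis to the summed markers was -3.14 and -2.86 in SGC-CBP30 replicates 1 and 2, against -2.09 and -2.11 in vehicle replicates 1 and 2, a difference of -0.91. For Lct and Treh the difference was -0.90 and -1.06. For Mgam it was -0.23, with -4.13 and -3.77 in the SGC-CBP30 libraries against -3.70 and -3.75 in the vehicle libraries, so that SGC-CBP30 replicate 2 nearly met the vehicle values. The Mgam difference was -0.049 without SGC-CBP30 replicate 1 and -0.41 without SGC-CBP30 replicate 2. Against Vil1 alone the differences were -1.15 for Sis, -0.47 for Mgam, -1.14 for Lct and -1.30 for Treh. Set against the mean log2 CPM of the markers, they were -0.84 for Sis, -0.16 for Mgam, -0.83 for Lct and -0.99 for Treh. Mgam then had 1.00 and 1.42 in the SGC-CBP30 libraries against 1.39 and 1.35 in the vehicle libraries, so the groups overlapped. With library totals as the scale, and also without SGC-CBP30 replicate 2, 6 of the markers were called higher.

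**Figure D4:**
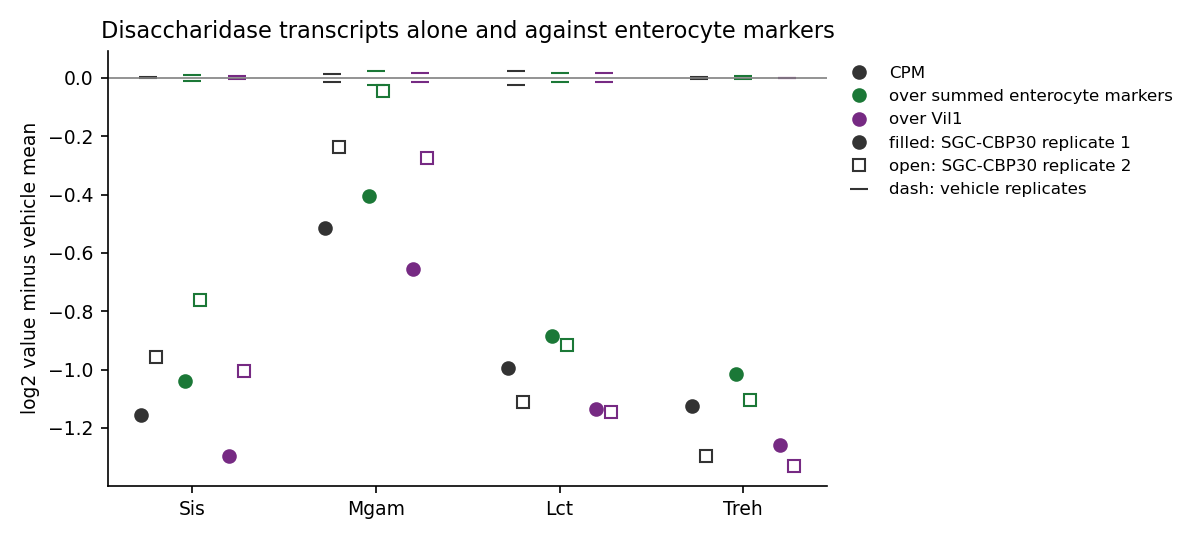
Log2 CPM of each disaccharidase gene (black), its log2 ratio to the summed enterocyte markers (green) and to Vil1 (purple), each minus its own vehicle mean (vertical axis); filled circles are SGC-CBP30 replicate 1, open squares SGC-CBP30 replicate 2 and dashes the vehicle libraries. Sis, Lct and Treh stay well below 0 on every measure, and Mgam in SGC-CBP30 replicate 2 comes close to 0 against the summed markers.

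Markers of other cell types were measured in the same libraries, where 16.3% of all genes tested were called lower and 13.6% higher. The part of these markers in the disaccharidase results was not tested. Of 8 goblet cell markers 1 rose and 2 fell, with summed levels of 4734 and 4774 CPM in the SGC-CBP30 libraries and 4617 and 4486 CPM in the vehicle libraries. The mucin gene Muc2 rose by 0.24 ± 0.07, and Agr2 and Clca1 fell by 0.24 ± 0.07 and 0.17 ± 0.06, but none of these 3 calls held when vehicle replicate 1 was left out (adjusted p = 0.0728, 0.0864 and 0.531) or when vehicle replicate 2 was (adjusted p = 0.114, 0.227 and 0.145). Agr2 and Clca1 missed the threshold under scaling by library totals as well (adjusted p = 0.0762 and 0.245). Among 8 Paneth cell markers 3 fell and 5 did not pass, with sums of 3734 and 3398 CPM in the SGC-CBP30 libraries and 4300 and 4209 CPM in the vehicle libraries. The lysozyme gene Lyz1 fell by 0.38 ± 0.06, Ang4 by 0.43 ± 0.06 and Nupr1 by 0.77 ± 0.17, and 6 of the 8 were called lower without SGC-CBP30 replicate 1. Of 9 enteroendocrine markers 2 rose and 2 fell (956 and 853 CPM in the SGC-CBP30 libraries, 989 and 924 CPM in the vehicle libraries), with Neurog3 at 1.49 ± 0.32, Reg4 at -0.51 ± 0.06 and Tac1 at -0.62 ± 0.12. Without SGC-CBP30 replicate 1 there were 4 lower calls, and without vehicle replicate 2 there was 1 higher. Of 5 tested tuft cell markers Trpm5 fell (-0.72 ± 0.15) and 4 did not pass, with sums of 31.5 and 33.3 CPM in the SGC-CBP30 libraries and 39.5 and 42.2 CPM in the vehicle libraries.

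Across all genes tested, 16.3% were called lower and 13.6% higher. Crypt base stem cell markers gave 1 higher, 2 lower and 4 not past the threshold of 7. These 7 summed to 543 and 610 CPM in the SGC-CBP30 libraries and 722 and 689 CPM in the vehicle libraries. Olfm4 fell by 1.79 ± 0.08 and Ascl2 by 0.98 ± 0.24, and Lgr5 rose by 0.56 ± 0.10. Of 6 cycling cell genes 4 fell and 2 did not pass (452 and 482 CPM in the SGC-CBP30 libraries, 567 and 536 CPM in the vehicle libraries), with Ccnb1 at -0.51 ± 0.10, Pcna at -0.32 ± 0.07 and Birc5 at -0.57 ± 0.12. With vehicle replicate 1 left out Pcna missed the threshold (adjusted p = 0.0562), and 2 genes were then called lower. The 12 markers of fibroblasts, immune cells and endothelium summed to only 6.28 and 5.18 CPM in the SGC-CBP30 libraries and 4.86 and 4.01 CPM in the vehicle libraries. Too few counts were present to test 10 of them, and the endothelial gene Pecam1 and the macrophage gene Cd68, named after its values were seen, had edgeR adjusted p of 0.77 and 0.776. The summed enterocyte markers stood between 56598 and 64882 CPM in every library.

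The genes whose pattern over the 4 libraries was most like that of each disaccharidase were found by the root mean square difference of centred log2 CPM among 5451 genes. Only 4 libraries enter this measure, so it mainly matches the fold change and the gap between replicates. Nearest to Sis were Ldb3 (0.015), Fmo4 (0.034) and Slc4a7 (0.034), genes of a cytoskeletal protein, a flavin monooxygenase and a bicarbonate transporter. Ldb3 had 32.6 and 37.0 CPM in the SGC-CBP30 libraries, against 71.7 and 73.4 CPM in the vehicle libraries. The genes nearest to Mgam were Ect2 (0.0045), which works in cell division, Fermt1 (0.015), of an integrin-binding protein, and the mitochondrially encoded mt-Nd2 (0.019). Ect2 lost its call without SGC-CBP30 replicate 1 (adjusted p = 0.066). Lct was followed most closely by Angptl4 (0.015), an inhibitor of lipoprotein lipase, Ociad2 (0.016) and Bri3bp (0.016). Around Treh lay Cyp2c68 (0.019), whose reads may be shared with close copies, and the brush border dipeptidase gene Dpep1 (0.022). Dpep1 had 168 and 154 CPM in the SGC-CBP30 libraries, against 379 and 380 CPM in the vehicle libraries. Among the disaccharidases themselves Lct and Treh were closest to each other (0.083), then Sis and Lct (0.11) and Sis and Treh (0.15), and Mgam stood 0.34 to 0.45 from the others. Many other genes lay nearer to each of them. Lct was in place 31 from Treh and 64 from Sis, Treh in place 61 from Lct, and Mgam in place 584 from Sis.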

How the data were processed

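Per the file headers, the authors deposited whole-number counts per gene and library, FPKM (counts scaled by gene length and library total, by the authors), the gene length in bases, and a log2 fold change with p-value and adjusted p-value of their own comparison, whose test is not given in the sources used here. Per the submitters' processing notes, the tools were featureCounts 1.5.0-p3, HISAT2 2.0.5 and StringTie 1.3.3b, and the build mm9, but 98.5% of the 51477 gene identifiers shared with GENCODE M21 have identical GRCm38 coordinates, so GRCm38 is used. The sources used here do not state how strand or multimapped reads were handled.

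The deposited table lists 51509 genes, of which 26144 had a count, and stops within its last line. All 27 symbols turned into dates were restored by identifier. The libraries held 16674571 and 17076724 counts with SGC-CBP30 and 18087250 and 16433117 with vehicle, and 3 counts equal 0.166 to 0.183 CPM. The test was that of edgeR 4.0.16 in R 4.3.3, with filterByExpr, TMM and a robust quasi-likelihood F test over all genes passing the filter, called at an adjusted p under 0.05. SE is the log2 fold change divided by the square root of F. Replicate counts differed beyond counting noise, by a chi-square of 6.76 per degree of freedom with SGC-CBP30 and 3.07 with vehicle (genes with at least 20 counts), so each library was kept as 1 sample. The scripts that fit the models were tested on simulated data. DESeq2 1.42.0, other scalings and filters, left-out libraries and the replicate block were alternatives.

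The members and lists were chosen with earlier results of these data known, and no list is independent support. Named genes are the 4 members, up to 3 called genes of smallest p per list (otherwise the 1 of smallest p), and for each member the 3 genes of nearest pattern with mean log2 CPM of at least 5 (pseudocount 0.5, without pseudogenes and clone names). Others were chosen after their values were seen, and some genes the rule gives are not reported here. The deposited FPKM entered no test.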

Additional observations from a re-analysis of the deposited data

How the results depend on the processing

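Sis, Mgam, Lct and Treh were called lower under all 10 alternatives run: DESeq2, library totals or RLE factors as the scale, no filter or at least 50 counts in 2 libraries, each library left out, and the replicate block. Leaving out 1 library gave log2 fold changes of -0.96 to -1.15 for Sis, -0.24 to -0.51 for Mgam, -0.99 to -1.11 for Lct and -1.12 to -1.30 for Treh; the lone library of a group is then assumed to vary like the others. DESeq2 called 2722 genes over the whole table, 1070 of them higher, and leaving out 1 library gave 2899 to 4557 calls, with 1235 to 2104 higher and 1664 to 2453 lower. The ratios to the summed enterocyte markers became -1.15 for Sis, -0.47 for Mgam, -1.14 for Lct and -1.30 for Treh against Vil1 alone. Against the mean log2 CPM of the markers they became -0.84, -0.16, -0.83 and -0.99 in the same order. The cause of these shifts was not tested. The labels do not say that replicate numbers pair libraries, and deviations of same-numbered libraries were nearly uncorrelated over 9474 genes (r = 0.0119, across genes, which are not replicates). With the replicate block 4703 genes were called, and no disaccharidase call changed. Among Mgam2-ps and the genes picked by the naming rule, 57 in all, 13 of 569 alternative values lost the call and 0 reversed. Genes named on other grounds, such as after their values were seen, are not in this count. Of 320 counts of calls in a list, 32 moved by over 1.5 times. Without SGC-CBP30 replicate 2 higher calls came to 2 among the brush border hydrolases, 2 among goblet, 1 among Paneth and 1 among stromal, immune and endothelial markers, and lower calls to 2 among intracellular glycosidases. Depth does not limit the disaccharidases, each with at least 3546 counts per library, but 2 libraries per group limit every estimate of spread.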

Other observations

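Genes that mark positions along the villus were measured by zone, and no difference between zones was tested. Over all genes tested 16.3% were called lower and 13.6% higher. Of 7 genes of the villus bottom 5 fell and 2 did not pass (median log2 fold change -0.57), and their summed level was 3732 ± 101 CPM with SGC-CBP30 and 6356 ± 15.0 CPM with vehicle (SD, n = 2 each). The antimicrobial lectin gene Reg3b fell by 1.86 ± 0.06 (SE) on the log2 scale, Lypd8, of a protein that binds flagellated bacteria, by 0.79 ± 0.06 and Reg1 by 0.57 ± 0.06. Of 6 genes of the villus tip 4 rose, 1 fell and 1 did not pass (median 0.33). The apolipoprotein gene Apoa4 rose by 0.43 ± 0.06, the nucleoside transporter gene Slc28a2 by 1.12 ± 0.15 and the growth factor receptor gene Egfr by 0.44 ± 0.08. The 1 lower call, Ada (-0.45 ± 0.11), named after its values were seen, did not hold without vehicle replicate 2, and Nt5e, the gene that did not pass, had -0.72 ± 0.42. These zones were described in the mouse small intestine and were not measured in the organoids.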
